A study of Homo sapiens with 18 samples.

Results

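The genes described here encode the proteins of the cytosolic ribosome. They were chosen by symbol: every protein-coding gene named RPL or RPS followed by a number, together with RPLP0, RPLP1, RPLP2, RPSA and FAU, leaving out the RPS6K kinases and pseudogenes. The rule gave 92 genes of the 24395 in the deposited tables, with 153 transcript accessions summed to genes. Of these, 78 are the standard ribosomal proteins, 32 of the small 40S subunit and 46 of the large 60S subunit, and they are called the core genes. The other members are 10 paralogs of core genes (RPL3L, RPL10L, RPL22L1, RPL26L1, RPL36AL, RPL39L, RPL7L1, RPS4Y1, RPS4Y2 and RPS27L), 3 readthrough genes that run on into a neighbour (RPL17-C18orf32, RPL36A-HNRNPH2 and RPS10-NUDT3) and RPS19BP1, whose product binds the protein of RPS19 and is not itself a ribosomal protein. RACK1, a 40S protein, has another kind of name and is not a member.

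The counts come from RNA-seq of K562, a human erythroleukaemia cell line, in 6 groups of 3 libraries. Lentivirus delivered either dCas9, a Cas9 that binds DNA but does not cut it, or dCas9 fused to the repressor domain KRAB; most groups also received a guide RNA (gRNA) to HS2, an enhancer of the beta-globin genes, and transduced cells were selected with puromycin. KRAB_no_gRNA received the fusion alone. In dCas9_CR4 and dCas9_CR10 the unfused dCas9 came with the gRNA CR4 or CR10, in KRAB_CR4 and KRAB_CR10 the fusion came with the same gRNAs, and no_lentivirus was K562 without transduction. The design text says that transduction was in triplicate; no label says whether the 3 untransduced libraries came from separate cultures, so for these the p-values may measure technical spread. Each library is named by its group and the replicate number of its label.

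Ribosomal proteins assemble with ribosomal RNA in the nucleolus into the 40S subunit, which reads the messenger RNA, and the 60S subunit, which joins amino acids. Their messenger RNAs are among the most abundant in dividing cells, and most start with a run of pyrimidines, the 5′ terminal oligopyrimidine (TOP) tract, through which the mTOR pathway and the protein LARP1 control their translation and stability. In erythroid precursors the supply of ribosomes matters for globin synthesis, and inherited loss of 1 copy of several of these genes causes Diamond-Blackfan anaemia.

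The start sites of the members show this tract, which the symbols did not use. The RefSeq promoter table (GRCh38.p14) held 73 of the 92 members. A tract was counted where the annotated start was a C followed by at least 4 bases that were each C or T, on the transcribed strand only, so that the shortest run counted was 5. Where a gene had several annotated starts, the start with the longest run was taken, for members and other genes alike. It was present in 50 of 73 members (68.5%), in 47 of 63 core genes (74.6%) and in 2 of 8 paralogs, against 938 of 15770 other protein-coding genes (5.95%). The sequences below run from 15 bases before to 15 bases from the start and mark the tract in capitals; they were chosen because the results turn on these genes, or because they set a paralog beside its parent gene. A match describes these letters in the annotation and does not show where transcription starts in these cells.
RPLP0: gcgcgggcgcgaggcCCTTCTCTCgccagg
RPS3: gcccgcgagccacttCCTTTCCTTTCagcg
RPS6: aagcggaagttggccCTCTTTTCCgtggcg
RPS24: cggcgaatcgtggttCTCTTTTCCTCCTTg
RPL28: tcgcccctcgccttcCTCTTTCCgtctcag
RPL29: caccgcagcccctttCTCTTCCggttctag
RPL41: cggaacttcgcctttCTCTCggccttagcg
RPL22: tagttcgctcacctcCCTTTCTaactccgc
RPL22L1: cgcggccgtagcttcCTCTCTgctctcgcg
RPL26: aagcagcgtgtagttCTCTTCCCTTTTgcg
RPL26L1: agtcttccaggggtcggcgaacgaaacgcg
RPS27: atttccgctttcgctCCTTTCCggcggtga
RPS27L: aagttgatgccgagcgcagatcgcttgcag
RPL7L1: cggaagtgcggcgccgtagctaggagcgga
RPS15: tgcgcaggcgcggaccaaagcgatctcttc

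The tract measured 14 bases in RPS24, 12 in RPL26, 11 in RPS3, 9 in RPLP0 and RPS6, 8 in RPL28, 7 in RPL29, RPL22 and RPS27, 6 in RPL22L1 and 5 in RPL41. RPL26L1, RPS27L and RPL7L1 had none at the annotated start, and neither did the core gene RPS15. In GRCh38.p14 the windows lie at chr12:120201097-120201126 for RPLP0, chr9:19380222-19380251 for RPS6, chr3:51995881-51995910 for RPL29, chr1:6199581-6199610 for RPL22, chr3:170870181-170870210 for RPL22L1, chr17:8383179-8383208 for RPL26 and chr15:63157463-63157492 for RPS27L on the reverse strand. On the forward strand they lie at chr11:75399503-75399532 for RPS3, chr10:78033848-78033877 for RPS24, chr19:55385917-55385946 for RPL28, chr12:56116618-56116647 for RPL41, chr5:172958714-172958743 for RPL26L1, chr1:153990747-153990776 for RPS27, chr6:42879601-42879630 for RPL7L1 and chr19:1438381-1438410 for RPS15. Among other genes of the pathway the tract was present in 8 of 10 translation factors and related genes listed for having it, in 4 of 30 ribosome biogenesis genes (13.3%) and in 6 of 69 mitochondrial ribosomal protein genes (8.7%).

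Library totals ranged from 22805964 to 34032962 counts, at 2 counts per sequenced fragment. Erythroid markers were at high levels in every library, with library medians from 113 counts-per-million (CPM) for KLF1 to 1132 CPM for TFRC. Of 7 markers of other blood cells MS4A1 and CD34 had no count, LYZ lay between 10.4 and 36.8 CPM and the others reached at most 2.23 CPM. Of 6 megakaryocyte markers GP9 had no count, ITGA2B lay between 2.53 and 24.6 CPM and the others reached at most 5.82 CPM. Of 3 fibroblast markers COL1A2 lay between 17.0 and 42.3 CPM and COL1A1 and COL3A1 reached at most 2.80 CPM. Of 4 epithelial markers KRT8 and KRT18 were high, at medians of 489 and 384 CPM, EPCAM had a median of 90.7 CPM and CDH1 reached at most 0.351 CPM. The part of these cell types in the results was not tested. HBE1, a target gene of HS2, lay between 53 and 94 CPM in the 6 libraries with KRAB and a gRNA and between 321 and 649 CPM in the other 12. Over all genes, the third library of each lentiviral group differed from the first and second, as the count of calls between them below shows, and the 3 untransduced libraries were unlike one another. The share of the ribosomal RNA precursor and its products, 18S and 28S included, was 4.02% in library 2 of KRAB_CR4 and 3.52% in library 1 of KRAB_CR10. It was at most 1.5% in the remaining libraries.

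The 92 genes together took 2.78% to 3.82% of all counts. By library number from 1 to 3, the share was 3.1%, 3.47% and 3.82% in KRAB_no_gRNA, 2.81%, 3.64% and 3.57% in dCas9_CR4, and 2.78%, 3.74% and 3.81% in dCas9_CR10. It was 2.87%, 3.14% and 3.61% in KRAB_CR4, 3.33%, 3.21% and 3.68% in KRAB_CR10, and 3.23%, 3.56% and 3.08% in no_lentivirus. All 6 groups overlapped in this share, and their means lay between 3.21% and 3.46%. The lentiviral libraries numbered 3, at 3.57% to 3.82%, overlapped those numbered 2, at 3.14% to 3.74%, and lay above all those numbered 1, at 2.78% to 3.33%. In bulk RNA fewer cells rich in this RNA and less of it per cell cannot be told apart. The ratio of 60S to 40S core counts varied little, from 1.71 to 1.82 in lentiviral libraries and from 1.78 to 1.92 in untransduced ones.

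**Figure D1:**
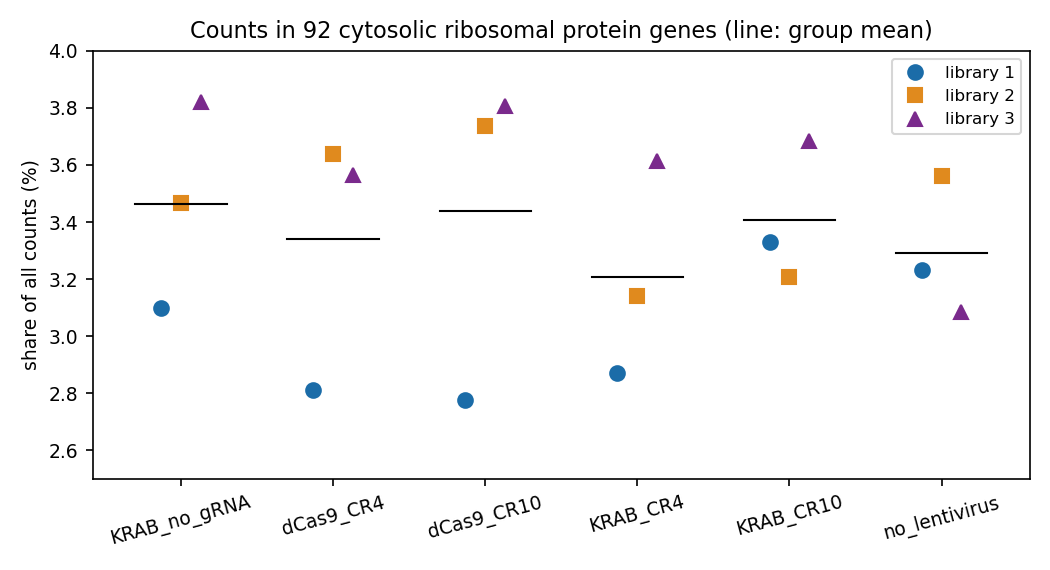
Share of all counts (%, axis from 2.5) that fell in the 92 ribosomal protein genes, by group, with 1 symbol per library and a line at the group mean. Libraries numbered 1 are lowest in 4 of the 5 lentiviral groups, and the groups overlap.

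Levels between genes were compared as CPM per kilobase of coding sequence. Untranslated parts of a transcript also give reads but are not in this length, so genes with a short coding sequence can read too high. The highest median levels over the 18 libraries were those of RPL41, which encodes a very short, basic protein of the 60S subunit, at 3639 CPM per kilobase, then RPLP0, the base of the ribosomal stalk, at 1744, RPL15 at 1699, RPS2 at 1568 and RPL13A at 1481. The lowest tested members were RPL22L1 at 26.9, RPL26L1 at 42.9, RPS27L at 94.5, RPL39L at 103 and RPL17-C18orf32 at 111 CPM per kilobase. Over the 88 tested members the highest library was between 1.34 times the lowest, in RPL28, and 4.34 times, in RPL22L1, with RPS26 next at 3.48 times. RPL41, whose coding sequence has 75 bases, read 231 to 333 CPM in lentiviral libraries and 237 to 272 CPM in untransduced ones. In plain CPM it was thus below RPL15, whose median over the 18 libraries was 1040 CPM.

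A count filter removed 4 members. The muscle paralog RPL3L had at most 8 counts in a library and RPL10L, known from testis, at most 6. RPS4Y1 and RPS4Y2, the Y-linked copies of RPS4X, had 0 counts in all 18 libraries, which leaves a low level possible. In the smallest library 3 counts are 0.132 CPM. At 2 counts per fragment a limit of 3 fragments lies above that value (counting error only). The other 88 members were tested, and the counts of calls below are out of these.

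The first question is whether a repressor at HS2 changed these genes. To answer it, 5 comparisons set the groups with KRAB and a gRNA against their controls, and the dCas9 groups against KRAB_no_gRNA. A gene was called when its edgeR quasi-likelihood p, adjusted by Benjamini-Hochberg over all genes tested, was below 0.05. In KRAB_CR4 against KRAB_no_gRNA 0 of 88 members were called, where 0.0204% of all 14713 genes were. The median member was at -0.15 on the log2 scale and the median of all genes at -0.00. Of 88 members 78 were below 0, where 50.6% of all genes were. At an unadjusted p under 0.05 there were 9 members, all lower, where 1.71% of all genes reached that p in either direction and 0.89% did so lower. The 9 depended on single libraries. With a library left out there were 0 such members without KRAB_CR4 library 1 or KRAB_no_gRNA library 2. There were 15 without KRAB_CR4 library 2. Members below 0 then numbered at least 62 (without KRAB_no_gRNA library 3, 48% of all genes). They numbered at most 85 (without KRAB_no_gRNA library 1, 47.9%). The median member then lay between -0.22 and -0.07, the latter without KRAB_CR4 library 1. DESeq2 called 0 members in this and the other 4 comparisons. With the replicate number as a block in the lentiviral libraries, 28 members reached an unadjusted p under 0.05, where 8.66% of all genes did, and the lowest edgeR adjusted p of a member was 0.358. Between libraries of the same number, 1 to 3, the median difference of the 78 core genes was -0.10, -0.15 and -0.15, with 55, 73 and 68 of them below the control.

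The 5 smallest p-values were in RPS27A, whose product is a fusion of ubiquitin with a 40S protein, and in RPS21, RPS25, RPS29 and RPL37A, short genes of either subunit. RPS27A read 266, 301 and 287 CPM in KRAB_CR4 libraries 1 to 3 against 341, 405 and 341 CPM in KRAB_no_gRNA, and RPS29 read 27.1, 45.9 and 41.5 CPM against 53.7, 65.8 and 54.3 CPM. In both genes every KRAB_CR4 library was below every control library. The log2 differences were -0.35 ± 0.13 (SE) for RPS27A and -0.60 ± 0.23 for RPS29, with an edgeR adjusted p of 0.999 for each, so neither passed. RPS25 differed by -0.42 ± 0.16, RPS21 by -0.41 ± 0.16 and RPL37A by -0.41 ± 0.17, again at an adjusted p of 0.999. In 15 of 88 members the KRAB_CR4 libraries lay wholly below the control, where 3.76% of all genes did. By coding length the median difference ran from -0.34 in the 11 members under 300 bases and -0.23 in the 33 from 300 to 449 to -0.07 in the 22 from 600 to 899, while other genes of the same lengths were at -0.16, -0.11 and -0.04. The part of transcript length in the difference was not tested.

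The medians of the other 4 comparisons of this kind were closer to 0. In some of them most members again lay below 0, but those counts depended on single libraries. KRAB_CR10 against KRAB_no_gRNA gave 0 of 88 calls (0.0204% of all genes), a median of -0.02, 52 members below 0 (53.8% of all genes) and 0 members at an unadjusted p under 0.05 (1.49% of all genes). Between libraries of the same number its median core gene differed by 0.18, -0.15 and -0.08, so the sign was not the same in all 3. KRAB_CR4 against dCas9_CR4 gave 0 calls (0.0204% of all genes), a median of -0.08, 72 members below 0 (51.4% of all genes) and 2 members at an unadjusted p under 0.05 (0.999% of all genes), the paralog RPL22L1 at -0.56 ± 0.26 and RPS21 at -0.34 ± 0.16 (SE; edgeR adjusted p of 1.0 in both). With the replicate number as a block 14 members reached that p, where 5.0% of all genes did, at a lowest edgeR adjusted p of 0.94. Left-out libraries moved the 72 to between 45 (without dCas9_CR4 library 2, 51% of all genes) and 86 (without dCas9_CR4 library 1, 51.1%). KRAB_CR10 against dCas9_CR10 gave 0 calls (0.0204% of all genes), a median of -0.01, 48 members below 0 (55.0% of all genes) and 0 members at an unadjusted p under 0.05 (0.496% of all genes). This median hid opposite shifts. Between libraries of the same number, 1 to 3, the median core gene differed by 0.29, -0.26 and -0.04. Of 78 core genes 0, 78 and 54 were below dCas9_CR10. Left-out libraries moved the 48 to between 12 (without dCas9_CR10 library 2, 53.9% of all genes) and 86 (without dCas9_CR10 library 1, 51.9%). Both dCas9 groups together against KRAB_no_gRNA gave 0 calls (0.0% of all genes), a median of -0.04, 73 members below 0 (51.2% of all genes) and 0 members at an unadjusted p under 0.05 (0.673% of all genes). Here left-out libraries moved the 73 to between 25 (without dCas9_CR10 library 1, 48.3% of all genes) and 87 (without KRAB_no_gRNA library 1, 48.2%). The median of the members then lay between -0.10 and 0.03. The median 95% interval of a member was 0.63 to 0.64 wide on the log2 scale in each comparison of 2 groups, so changes of modest size could have been missed. These comparisons share control libraries. With libraries numbered 3 left out the counts of called members were again 0, as they were with the replicate number as a block.

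The second comparison set the mean of the 5 lentiviral groups against untransduced cells, which differ in transduction, selection and any difference in handling; these cannot be told apart. Here 27 of 88 members were called, 21 higher and 6 lower, where 18.7% of all genes were called, 7.55% higher and 11.2% lower. As shares of the members the calls were 23.9% higher and 6.82% lower; the difference from the shares of all genes was not tested. The median member was at 0.18 and the median of all genes at 0.01. Upper-quartile scaling split the calls 17 to 2 (18.4% of all genes called), and scaling by library totals 23 to 2 (17.7%).

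Of the 6 tested paralogs 4 were higher, and 2 of them had the largest differences of all members. RPL7L1, a relative of RPL7 with a known role in ribosome assembly, read 110 to 150 CPM in the 15 lentiviral libraries, with a median of 133, against 88.4, 73.2 and 80.9 CPM in the untransduced ones. RPL22L1, a paralog of the RNA-binding protein gene RPL22, read 7.09 to 15.9 CPM with a median of 11 against 6.80, 3.66 and 4.36 CPM. Neither gene overlapped between the groups; in all, 4 of 88 members were higher without overlap and 3 lower, where 3.32% and 4.24% of all genes were. RPL7L1 was 0.70 ± 0.10 higher on the log2 scale (SE; edgeR adjusted p = 0.000633) and RPL22L1 1.19 ± 0.22 higher (edgeR adjusted p = 0.00265). These 2 were called with each of the 18 libraries left out in turn. RPL36AL (0.55) and RPL26L1 (0.49) were also higher, at 47.9 ± 7.65 against 32.6 ± 6.64 CPM and 19.8 ± 3.23 against 14.1 ± 2.81 CPM (SD, n = 15 and 3), while RPS27L (0.14, edgeR adjusted p = 0.54) and RPL39L (-0.27, edgeR adjusted p = 0.359) were not called.

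Beside their parents the paralogs differed widely in abundance. The counts of RPL22L1 were 2.49% to 4.25% of those of RPL22 in lentiviral libraries and 2.80%, 1.15% and 1.81% in untransduced ones, although RPL22 itself was higher in the lentiviral groups (0.37 ± 0.10, 347 ± 37.3 against 268 ± 44.3 CPM, SD, n = 15 and 3; edgeR adjusted p = 0.0209). RPL39L, which replaces RPL39 in some ribosomes, was at 17.2% to 28.2% of RPL39 in lentiviral libraries and at 35.4%, 44.6% and 30.6% in untransduced ones, with no overlap. RPL7L1 was at 26.2% to 42.9% of RPL7 against 24.2%, 20.9% and 26.3%. RPL36AL had the highest share, at 51.8% to 75.7% of RPL36A against 68.1%, 41.1% and 67.6%, so these groups overlapped. RPL26L1 was at 9.33% to 17.4% of RPL26 and RPS27L at 16.8% to 23.8% of RPS27 in lentiviral libraries. These ratios are descriptions with no test. The readthrough genes share exons with their core genes, and how the counting divided such reads is not stated: RPL36A-HNRNPH2 had 127% to 198% of the counts of RPL36A, so its level and that of RPL36A are uncertain. The same holds for genes with near-identical processed pseudogenes.

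Of the 40S core genes 8 were higher, 3 lower and 21 not called. RPS26, a Diamond-Blackfan anaemia gene at the messenger RNA exit channel, read 126 to 195 CPM with a median of 146 in lentiviral libraries against 127, 56.1 and 111 CPM. Untransduced library 2 was far below the other libraries in this gene. Its log2 difference was 0.64 ± 0.19 (SE; edgeR adjusted p = 0.0273), and it was 0.35 at an edgeR adjusted p of 0.224 without that library. RPS24 (0.52) and RPS19 (0.33), also anaemia genes, were higher, at 389 ± 62.6 against 270 ± 31.3 CPM and 283 ± 34.4 against 224 ± 23.0 CPM (SD, n = 15 and 3). The call of RPS19 was weak: of the 18 fits with a library left out it passed in 4, those without dCas9_CR4 libraries 1 or 3, KRAB_CR4 library 1 or KRAB_CR10 library 2. RPS15 (0.47), RPS29 (0.63), RPS21 (0.43) and RPS28 (0.38) were also higher. RPS19BP1, not a ribosomal protein, was 0.68 higher.

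RPS3, a 40S protein at the entry of the messenger RNA channel that also has a role in DNA repair, fell. It read 687 to 975 CPM with a median of 799.9 in lentiviral libraries and 1106, 1196 and 1007 CPM in untransduced ones, without overlap. The log2 difference was -0.45 ± 0.10 (SE; edgeR adjusted p = 0.00545), and without untransduced library 2 it was -0.39 at an edgeR adjusted p of 0.0713. RPSA, which is also known as the laminin receptor, was at 444 ± 41.3 against 538 ± 55.0 CPM (SD, n = 15 and 3; -0.28), a call that passed in 8 of the 18 fits with a library left out. RPS6, the substrate of the S6 kinases, was not called (0.08; 503 ± 61.3 against 475 ± 36.1 CPM).

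In the 60S subunit 8 core genes were higher, 3 lower and 35 not called. RPL6 did not overlap, at 614 to 839 CPM against 539, 522 and 563 CPM (0.37 ± 0.09 SE; edgeR adjusted p = 0.00969). RPL37 (0.54), RPL37A (0.50), RPL39 (0.47), RPL38 (0.46), RPL36A (0.43), RPLP2 (0.41) and RPL22 were the other rises. The falls were in RPLP0, RPL13A and RPL3. RPLP0 read 1393 to 1953 CPM with a median of 1645 against 2121, 2351 and 1952 CPM, so the highest lentiviral library overlapped the lowest untransduced one. RPLP0 was 0.38 lower (-0.38 ± 0.09 SE; edgeR adjusted p = 0.00682) while RPLP2, which binds to it in the stalk, was 0.41 higher. RPL13A was at 858 ± 102 against 1118 ± 184 CPM and RPL3, at the peptidyl transferase centre, at 1164 ± 115 against 1464 ± 182 CPM (SD, n = 15 and 3). RPL5 and RPL11, which with 5S ribosomal RNA bind MDM2, were at 0.02 and 0.04 and not called.

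The differences varied with coding length. In members under 300 bases the median difference was 0.43, from 300 to 449 it was 0.29, from 450 to 599 it was 0.08, from 600 to 899 it was 0.03, and in the 3 members over that it was -0.33. Other genes of these lengths were at 0.17, 0.09, 0.04, -0.00 and -0.02, so their medians ran the same way over a smaller range. The part of length in the calls was not tested.

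**Figure D2:**
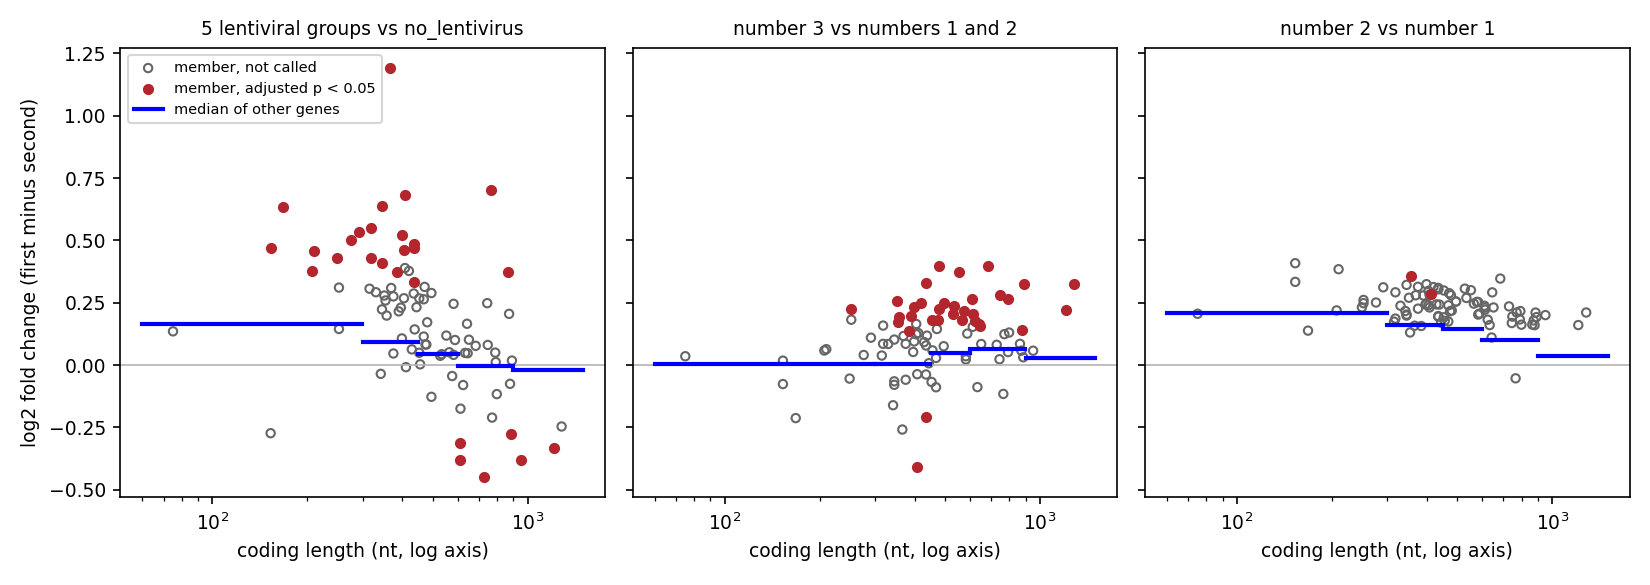
Log2 fold change of each of the 88 tested members against coding length (nucleotides, log axis) in 3 comparisons; filled points passed an adjusted p of 0.05, and blue bars are medians of all other genes in each length range. In the left panel members under 300 bases have a median of 0.43 and the 3 longest one of -0.33.

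The calls against untransduced cells leaned on single libraries of that group. Without no_lentivirus library 2 only 3 members were called, namely RPL7L1 (0.63), RPL22L1 (1.01) and RPL22 (0.51), where 2.33% of all genes were called, and without no_lentivirus library 3 there were 8, where 9.2% were. As shares of the members these are 3.41% and 9.09%, near those of all genes. Without no_lentivirus library 1 there were 22, at 25% of members and 24.3% of all genes. KRAB_no_gRNA alone against the untransduced cells gave 7 members, all higher (7.95% of members and 6.63% of all genes). With any 1 of the 18 libraries left out in turn, the call passed in 8 fits for RPL39, in 9 for RPL38, in 11 for RPL13A and in at least 14 for the other called members named above, RPS19 and RPSA apart. The other gene lists of the pathway had medians of either sign. Over all genes 7.55% were called higher and 11.2% lower, and the lists were not tested against these shares. Of 18 translation factors and related TOP genes 2 were higher and 6 lower (median -0.23), among the latter EEF1A1 at 4188 ± 397 against 5294 ± 413 CPM and EEF2 at 3300 ± 299.7 against 4096 ± 345 CPM (SD, n = 15 and 3). Of 35 biogenesis genes 3 were higher and none lower (median 0.28): NCL, GAR1 and RRS1. Among 18 regulators 3 were higher, LARP1 included (0.49), and 1 lower, and of 77 mitochondrial ribosomal protein genes 9 were higher and 5 lower (median 0.19). The calls in these lists were not counted with libraries left out.

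**Figure D3:**
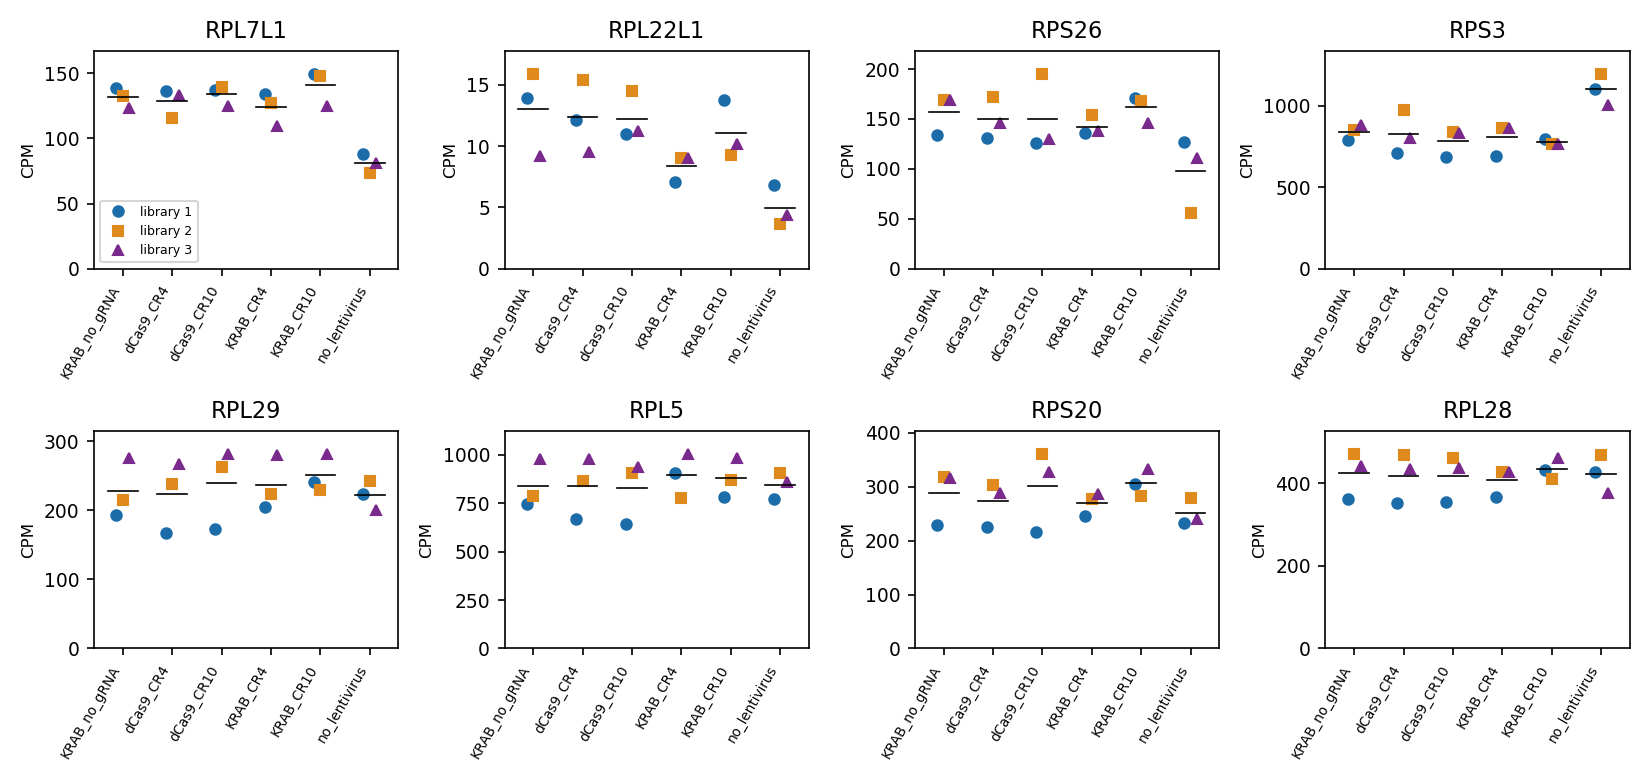
CPM per library of 8 members by group, with symbols by library number and a line at the group mean; axes start at 0. RPL7L1, RPL22L1 and RPS3 of the untransduced cells lie apart from all lentiviral libraries, and RPL29 and RPL5 are highest in lentiviral libraries numbered 3.

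The third comparison set the lentiviral libraries numbered 3 against those numbered 1 and 2, with the group as a covariate. What the number marks, beyond a replicate, is not in the labels, and that the libraries numbered 3 stand apart was known when the comparison was chosen. Of 88 members 33 were called, 31 higher and 2 lower, where 53.8% of all 14599 genes were, 27.9% higher and 25.9% lower. The members' calls, 37.5% in all, are to be read against that background. Of the core genes 10 of 32 in the 40S and 19 of 46 in the 60S subunit were higher and none lower. The median member was at 0.11 and that of all genes at 0.03. With upper-quartile scaling 55 members were higher and 1 lower, where 54.9% of all genes were called, and with library totals 52 and 1, where 54.6% were; these scalings moved the median of all genes to 0.12 and 0.10 and that of the members to 0.19 and 0.18. Without KRAB_no_gRNA library 3 the calls numbered 19, where 47.4% of all genes were called.

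RPL29, a 60S protein also known as a heparin-binding protein, had the largest rise of a core gene. It read 276, 267, 280, 281 and 281 CPM in the libraries numbered 3 of KRAB_no_gRNA, dCas9_CR4, KRAB_CR4, dCas9_CR10 and KRAB_CR10, and 167 to 262 CPM with a median of 219 in the 10 numbered 1 and 2. The difference was 0.40 ± 0.07 (SE; edgeR adjusted p = 7.89e-05). RPL5 read 981, 979.6, 1005, 938 and 985 CPM in the same order against 645 to 905 CPM with a median of 784 (0.32 ± 0.07 SE; edgeR adjusted p = 0.000422). RPL4 read 1691 to 1805 CPM against 1129 to 1632 CPM (0.32 ± 0.06 SE; edgeR adjusted p = 0.000255). These 3 of 88 members did not overlap, where 9.12% of all genes were non-overlapping and higher.

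RPL17 (0.37), its readthrough RPL17-C18orf32 (0.40), RPL26 (0.33), RPS6 (0.28), RPL13A (0.26), RPS4X (0.26), RPL34 (0.26) and RPL12 (0.25) were the next rises, RPS6 at 564 ± 18.8 against 472 ± 51.0 CPM (SD, n = 5 and 10). RPL17 and its readthrough share exons and are not 2 separate measurements. RPL11 was higher by 0.24. The 2 falls were both outside the core: RPS19BP1 fell by 0.41, from 67.7 ± 8.58 to 50.4 ± 7.71 CPM, and the paralog RPL26L1 fell by 0.21, from 20.8 ± 3.42 to 17.6 ± 1.27 CPM, while its parent RPL26 was 0.33 higher, at 176 ± 11.8 against 144 ± 24.7 CPM (SD, n = 5 and 10).

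By group, library 3 lay above the mean of libraries 1 and 2 in most members: 68 of 88 in KRAB_no_gRNA, 52 in dCas9_CR4, 76 in KRAB_CR4, 67 in dCas9_CR10 and 59 in KRAB_CR10, where 46.7% to 50.4% of all genes did. Library 3 was not above library 2 in every group: the median deviation of the core genes was 0.04 in library 3 and 0.17 in library 2 of dCas9_CR4, and 0.13 and 0.25 in dCas9_CR10, with library 1 at -0.19 and -0.21. In 46 members library 3 lay above the mean of libraries 1 and 2 in all 5 groups, where 26.5% of all genes did so. The genes that build ribosomes went the other way. Of 35 biogenesis genes 24 were lower and none higher (median -0.38), among them POLR1A, the largest subunit of RNA polymerase I, at 129 ± 12.8 against 233 ± 38.7 CPM, and UBTF, its transcription factor, at 186 ± 16.7 against 290.5 ± 26.5 CPM (SD, n = 5 and 10). Of the TOP translation factors 14 of 18 were higher and none lower (median 0.21), with EEF2 at 3606 ± 244 against 3148 ± 188 CPM. Of 18 regulators 10 were lower and 1 higher, and of 77 mitochondrial ribosomal protein genes 34 were lower and 6 higher (median -0.15). Over all genes 27.9% were called higher and 25.9% lower in this comparison.

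**Figure D4:**
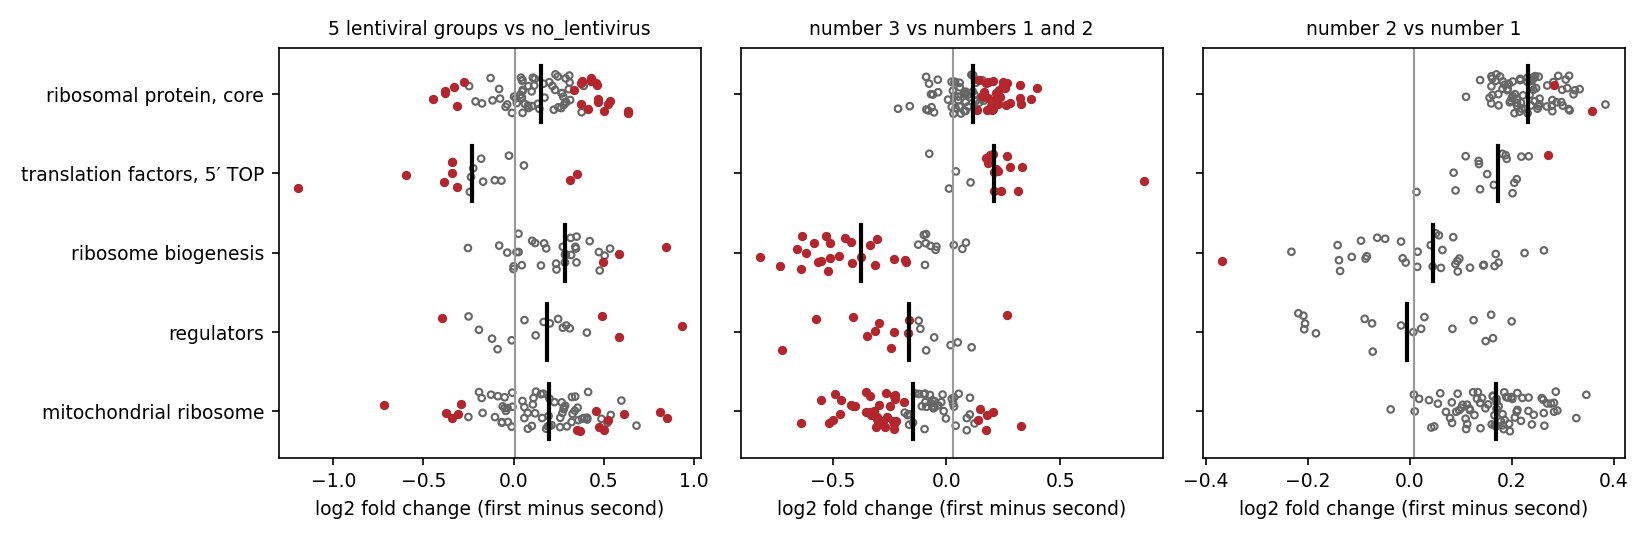
Log2 fold changes of the core ribosomal protein genes and 4 other gene lists in 3 comparisons; each point is a gene, filled where its adjusted p was below 0.05, black bars are list medians and the grey line is the median of all genes. In the middle panel the core genes and translation factors have medians of 0.12 and 0.21, and the biogenesis genes one of -0.38.

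Libraries numbered 2 were also set against those numbered 1. Here 2 of 88 members were called, both higher, where 1.04% of all genes were called, 0.178% higher and 0.863% lower. They were RPS20, a 40S protein, and RPL28, a 60S protein. RPS20 read 318, 304, 278, 361 and 283 CPM in the libraries numbered 2 of KRAB_no_gRNA, dCas9_CR4, KRAB_CR4, dCas9_CR10 and KRAB_CR10, against 229, 226, 246, 216 and 306 CPM in those numbered 1. Library 1 of KRAB_CR10 was the exception that overlapped. The difference was 0.36 ± 0.09 (SE; edgeR adjusted p = 0.0486), and that of RPL28 was 0.28 ± 0.07 (edgeR adjusted p = 0.0497; 447 ± 27.2 against 373 ± 33.5 CPM, SD, n = 5 and 5).

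Small shifts in 1 direction were common. In 87 of 88 members the fitted difference was above 0, where 51.6% of all genes were, with a median of 0.23 against 0.01 over all genes, and 80 of 88 had an unadjusted p under 0.05, where 20.0% of all genes did. RPL7L1 was the exception, at -0.05. By group, library 2 exceeded library 1 in 87 members in KRAB_no_gRNA, 86 in dCas9_CR4, 74 in KRAB_CR4 and 88 in dCas9_CR10, and in 18 of 88 in KRAB_CR10, where 45.1% to 51.5% of all genes did. The number of calls depended on few libraries: without KRAB_CR10 library 1 it was 49 (3.55% of all genes), without KRAB_CR10 library 2 it was 24 (2.3%), without KRAB_CR4 library 1 it was 22 (5.83%) and without KRAB_CR4 library 2 it was 14 (4.16%). It was 0, with at most 1.45% of all genes called, without any 1 of 10 others (the 3 libraries of KRAB_no_gRNA, the 3 of dCas9_CR10, libraries 1 and 2 of dCas9_CR4, and library 3 of KRAB_CR4 and of KRAB_CR10). DESeq2 called 40 members and 6.09% of all genes.

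Other short genes moved as well. Genes with a coding sequence under 600 bases, leaving out the members and globins, took 8.57% to 9.02% of counts in libraries numbered 1, 8.95% to 10.2% in those numbered 2 and 9.45% to 9.83% in those numbered 3. In number 2 against number 1 the median difference of other genes was 0.21 under 300 bases, 0.16 from 300 to 449 and 0.14 from 450 to 599, against 0.25, 0.24 and 0.25 in members, and -0.20 in genes of 3000 bases or more. Mitochondrial ribosomal protein genes, which are also mostly short, were above 0 in 76 of 77 (median 0.17), and the TOP translation factors in 18 of 18 (median 0.17). The part of length or RNA quality in these differences was not tested.

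**Figure D5:**
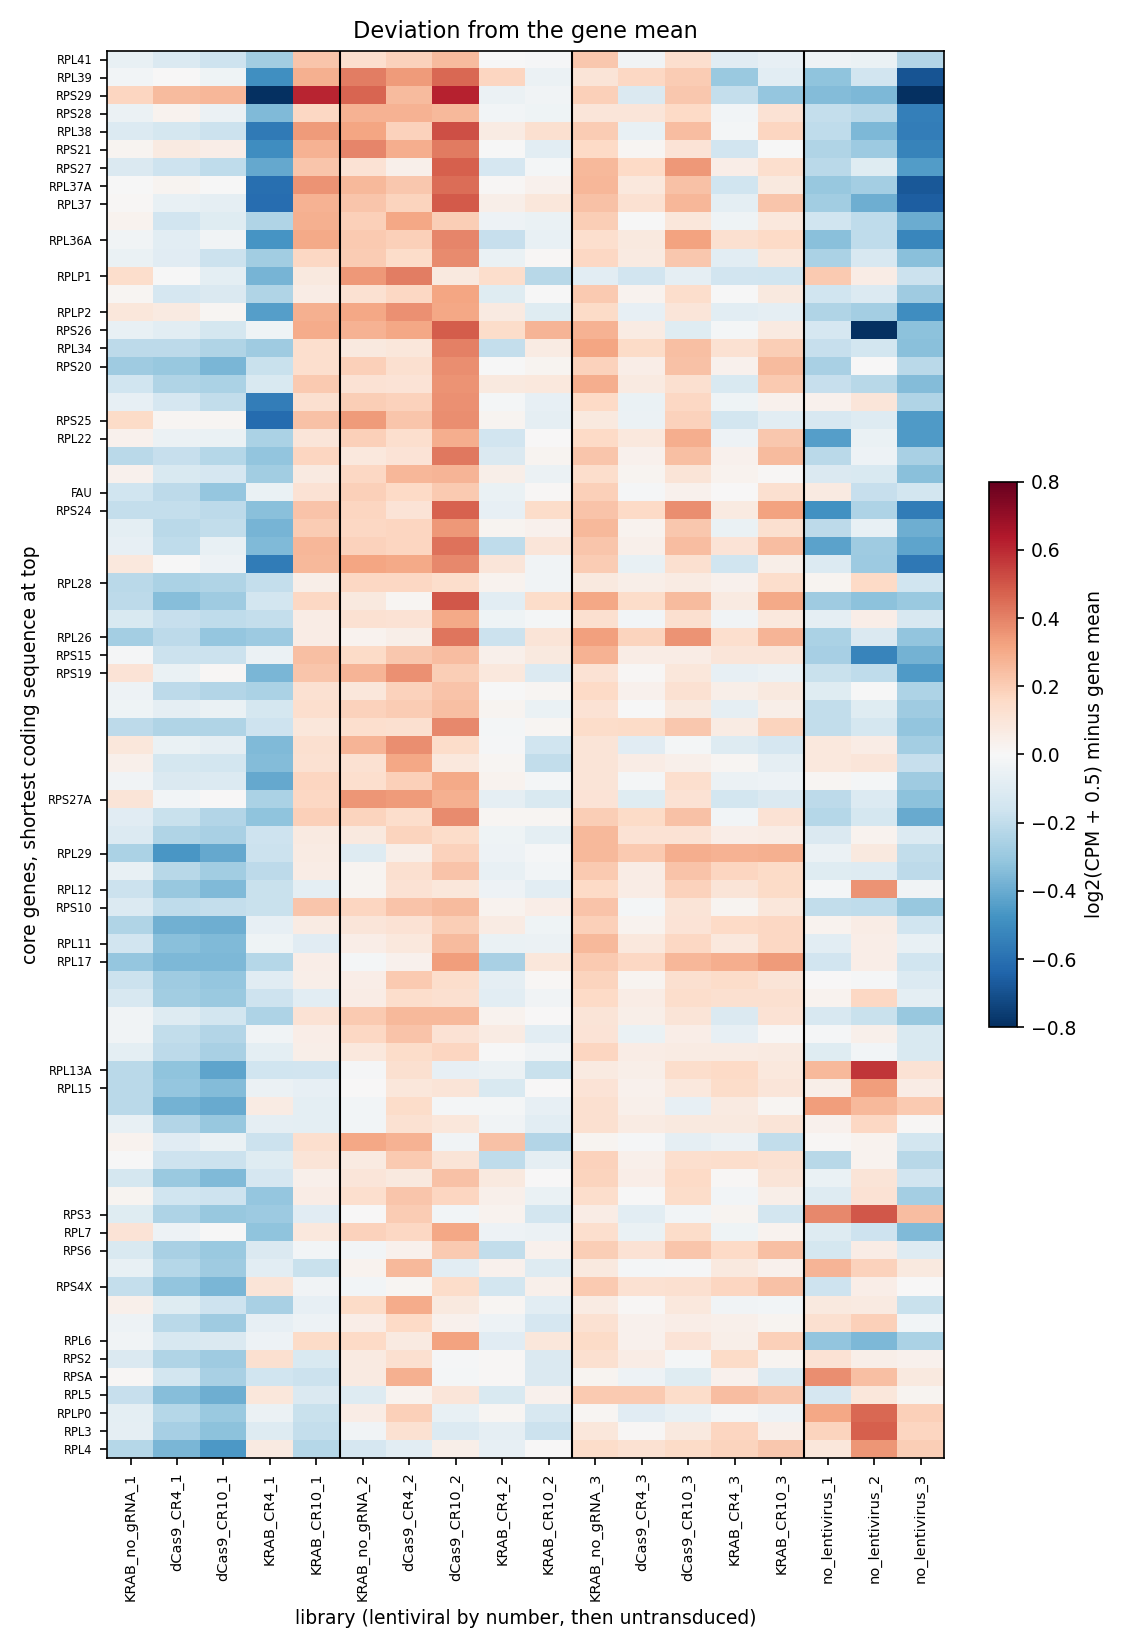
Deviation of log2(CPM + 0.5) from the mean over 18 libraries for the 78 core genes, ordered by coding length from the shortest at the top, with lentiviral libraries by number and then the untransduced ones; red is above the mean, and only some rows carry a gene name. The median deviation is -0.22 in KRAB_CR4 library 1 and 0.11 in KRAB_CR10 library 1.

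Within the lentiviral libraries the core genes deviated together. The median deviation from each gene's mean over the 18 libraries was lowest in KRAB_CR4 library 1, at -0.22 with 5 of 78 core genes above their mean, then in dCas9_CR10 library 1 (-0.21, 6 of 78) and dCas9_CR4 library 1 (-0.19, 7 of 78). It was highest in dCas9_CR10 library 2, at 0.25 with 69 of 78 above, and dCas9_CR4 library 2 (0.17, 77 of 78). KRAB_CR10 library 1, at 0.11 with 59 of 78 above, was the only library numbered 1 above 0. The untransduced libraries had medians of -0.12, -0.03 and -0.25.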

How the data were processed

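The members and the gene lists were chosen with earlier results of these data known. The authors deposited 1 table of raw counts per library, with a RefSeq accession and a count per line; per the submitters' processing notes, the build was hg19 and the tools were DESeq in R 3.1.2, Picard, SAMtools and Bowtie2, with no role given. Libraries were poly(A)-selected and cut by a Nextera transposase without strand, per the labels' protocols, so antisense reads cannot be told apart. The counter and the handling of multiple alignments are not given in the sources used here. All counts are even, which was read as 2 per fragment.

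Accessions were summed to genes by RefSeq and GENCODE names (97.9% of accessions, 99.0% of counts; 868 kept unnamed). Tests used edgeR 4.0.16 in R 4.3.3 (filterByExpr, TMM, quasi-likelihood, Benjamini-Hochberg over all genes, threshold 0.05), checked on simulated data; DESeq2 1.42.0 was an alternative. CPM values are TMM-scaled, except those of markers and HBE1. Coding lengths are of GENCODE principal transcripts. The biological coefficient of variation was 21.6% in 18 libraries and 10.5% in the 15 lentiviral ones with number and group fitted. Same-numbered lentiviral libraries deviated together in 30 of 30 pairs, with correlations of 0.16 to 0.86. Pairs of different numbers had -0.73 to 0.58, and 18 of these 60 were above 0.1. The deviations were from the mean of each group's own 3 libraries, so these correlations are not independent of one another. Numbers were read as pairing these libraries, but the main fits of the groups had no term for the number. Intervals cover library spread and counting, not molecules. Genes named in the text were fixed members by role, the called members of largest change, the 5 with smallest p where fewer than 3 were called, the extremes of level, and readthrough and filtered members. Values of some single members are not reported here; counts and medians over members include them.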

Additional observations from a re-analysis of the deposited data

Results flagged for a closer look

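In KRAB_CR10 library 1, 6 members lay far above the other 4 lentiviral libraries numbered 1: RPS24 at 423.7 CPM, RPL28 at 431.6 CPM, RPS15A at 252.8 CPM, RPS13 at 200 CPM, RPL34 at 189.9 CPM and RPL26 at 153.8 CPM. They were found among 105 sets of 5 libraries, of which chance marks about 1 in 20. Ribosomal RNA was 3.52% of the counts in this library; its part in the levels was not tested. KRAB_CR10 was also the only lentiviral group whose ribosomal protein share was lower in library 2 than in library 1, by -0.1252 percentage points, and the difference from the other groups was not tested. Pseudogenes and noncoding genes named for ribosomal proteins, which no comparison used, held up to 0.0459% of a library's counts.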

How the results depend on the processing

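In the 5 comparisons of KRAB, gRNA and dCas9 groups the count of called members was 0 under all 13 other alternatives, those with the replicate block included, and from 0 to 0 with each library left out. Against untransduced cells the 27 calls (18.7% of all genes) became 40 with a replicate block on all 18 libraries (28.5%), 7 with KRAB_no_gRNA alone (fewer libraries; 6.63%), and 3 to 33 with a library left out. For number 3 against numbers 1 and 2 the 33 calls (53.8% of all genes) became 56 with upper-quartile factors (54.9%) and 53 with library totals (54.6%), and 19 to 40 with a library left out. For number 2 against number 1 the 2 calls (1.04% of all genes) became 40 with DESeq2 (6.09%), 40 with no count filter (4.4%), 5 with no group term (1.69%), 0 with the most counted accession per gene (1.09%), and 0 to 49 with a library left out. The causes were not tested. No value of a called member reversed. With 3 libraries a group the median 95% interval of a member was up to 0.64 wide on the log2 scale, so small differences could have been missed.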
